A study of Danio rerio with 6 samples.

Results

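The RNA components of the signal recognition particle (SRP), of RNase P and of the 7SK particle were represented by 5 zebrafish genes. They were selected by gene identifier, as abundant RNA genes, from the 32520 genes counted. They were rn7sl1 (ENSDARG00000087732) and a gene with the symbol Metazoa_SRP (ENSDARG00000112225) for SRP RNA, rpph1 (ENSDARG00000089617) and RNaseP_nuc (ENSDARG00000085497) for RNase P RNA, and rn7sk (ENSDARG00000081270) for 7SK RNA. All 5 had counts in all 6 libraries and passed the filter on low counts in every comparison.

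The libraries came in pairs from 3 groups of 1-month-old zebrafish. In mgat4b mutant melanoma, the MAZERATI plasmids were injected into embryos of the ASWT wild-type strain, where the mitfa promoter, active in the melanocyte lineage, drove an oncogenic BRAF and the Cas9 that cut the tumor suppressor genes p53 and ptena/b, and guides cut mgat4b, the gene of an N-glycan branching enzyme, as well. Control melanoma had the same BRAF transgene and the same cuts in p53 and ptena/b, with a control plasmid in place of the mgat4b guides, which the methods name in more than one way. Wild-type melanophores came from untreated fish without the plasmids. Per the paper, control fish developed tumors within a month, whereas in mgat4b mutant fish melanocytes aggregated but formed no tumor. The name mutant melanoma is thus that of the sample label. Between mutant and control melanoma, the cut in mgat4b and the lack of a tumor cannot be told apart. Injected fish are mosaic, so that cells with and without the edits can be mixed. The cells were dissociated from skin or tumor biopsies and enriched on a Percoll density gradient without sorting. The series names 5 zebrafish for the 6 libraries and gives no number of fish per library, so p-values measure the spread between these libraries, which may be partly technical.

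SRP RNA, also known as 7SL RNA, is the scaffold of the particle that binds ribosomes making secretory and membrane proteins and brings them to the endoplasmic reticulum. RNase P RNA is the catalytic RNA of the enzyme that removes the 5′ leader from precursor tRNAs. 7SK RNA holds the transcription elongation kinase P-TEFb in an inactive particle together with HEXIM, LARP7 and MEPCE proteins. All of these RNAs are made by RNA polymerase III, lack a poly(A) tail and are seen here because total RNA, depleted of ribosomal RNA, was the input of the libraries.

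The mutant libraries were the shallowest, with 5225341 and 3538922 counts, against 8223044 and 8446997 in control melanoma and 7351705 and 7121087 in wild-type melanophores. Paired libraries were apart by more than sampling noise, most in the mutant, with a chi-square per degree of freedom over genes of 10.2 in mutant melanoma, 2.52 in control melanoma and 2.31 in wild-type melanophores. MGAT4B, the targeted gene, had 94 and 52 counts in mutant melanoma and 102 and 107 in control melanoma, and its log2 fold change of 0.17 did not pass the test (SE 0.28, edgeR adjusted p = 0.717). At 20.2 and 15.4 CPM (CPM, counts scaled to a common library size after adjustment by the trimmed mean of M values, TMM) in mutant melanoma and 15.8 and 16.2 CPM in control melanoma, the groups overlapped. Of 10 melanophore markers 6 were found, and their summed level was 123 to 140.0 CPM in mutant melanoma and 112 to 114 CPM in control melanoma, against 9.33 to 10.2 CPM in the libraries labelled as wild-type melanophores. The 8 keratinocyte markers summed to 10341 to 10816 CPM in those wild-type libraries, far above the sum of the markers found for the labelled cell type. The other melanophore markers were not matched by symbol, whereas all 8 keratinocyte markers were. These sums therefore do not compare the amounts of melanophores and keratinocytes. All 6 melanophore markers were called higher in control melanoma over wild-type melanophores (calls are defined below), with a median log2 fold change of 3.51. In mutant melanoma over wild-type melanophores 4 of 5 tested were called higher and 0 lower, with a median of 3.45. Over all genes tested 19.9% and 9.72% were called higher. How many markers passed the filter only through melanoma is not given here. The 6 fibroblast and scale markers summed to 7351 to 7614 CPM in mutant melanoma, 39094 to 40209 CPM in control melanoma and 2426 to 2779 CPM in wild-type melanophores, an order of groups that all 5 RNA genes share. The 3 skeletal muscle markers found had this order too, as had 2 erythrocyte markers. The latter summed to 1161 to 1297 CPM in mutant melanoma, 1335 to 1364 CPM in control melanoma and 800.0 to 829 CPM in wild-type melanophores. The melanophore, keratinocyte and leukocyte sums did not have it, and the endothelial sums of mutant melanoma and wild-type melanophores overlapped. The keratinocyte sums were 9484 to 9731 CPM in mutant melanoma and 6505 to 6697 CPM in control melanoma. Leukocyte markers, 4 genes, summed to 197 to 218 CPM in mutant melanoma, 172 to 197 CPM in control melanoma and 647 to 674 CPM in wild-type melanophores, and 3 endothelial markers to 15.1 to 15.9 CPM in mutant melanoma, 45.0 to 47.9 CPM in control melanoma and 13.5 to 15.5 CPM in wild-type melanophores. No gene of any marker list was at 0 in both libraries of a group. The part of the cell mixture in the results was not tested.

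Together the 5 RNAs took a large and group-dependent share of each library. They made up 37.0 and 31.1% of all counts in the mutant libraries, 45.6 and 45.8% in the control libraries and 9.89 and 9.95% in the wild-type libraries. The means were 34.0% ± 4.16 in mutant melanoma, 45.7% ± 0.146 in control melanoma and 9.92% ± 0.0453 in wild-type melanophores (SD, n = 2 each). The 3 groups did not overlap. The share exceeded that of wild-type melanophores by 35.8 percentage points in control melanoma and by 24.1 points in mutant melanoma, whereas it was 0.745 times as large in mutant as in control melanoma. In an exact two-sided permutation test each of these 3 differences gave p = 0.333, the smallest value that 2 against 2 libraries allow. No 95% Wilson interval of any gene's share spanned more than 0.0965 percentage points, counting error only. In bulk samples, fewer cells of a type and less RNA per cell cannot be told apart.

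**Figure D1:**
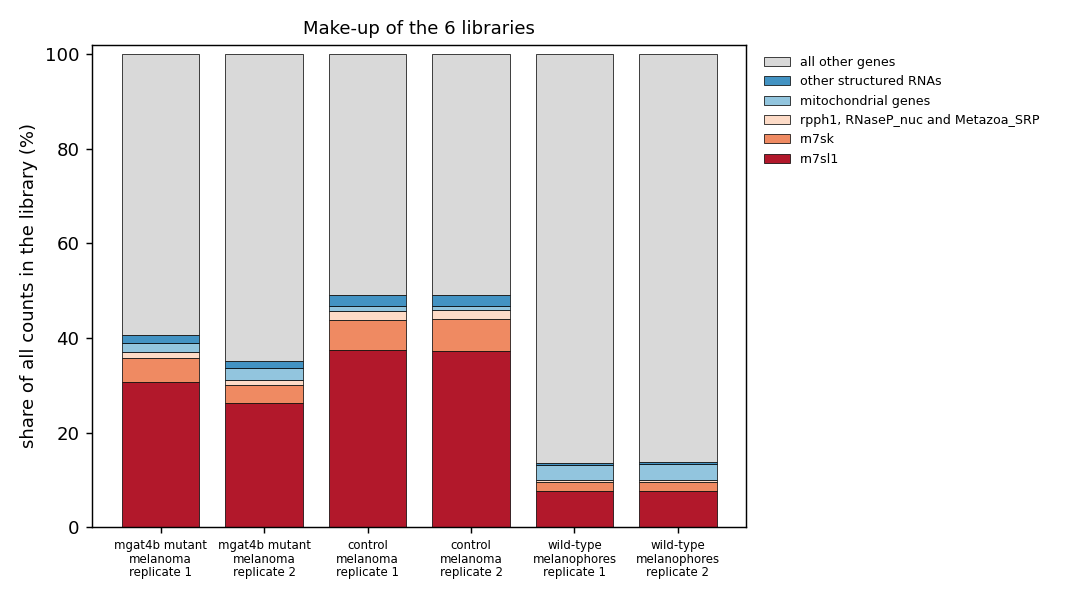
Share of all counts (%, vertical axis) taken by rn7sl1, by rn7sk, by the other 3 RNA genes together, by mitochondrial genes, by other structured RNAs and by all other genes, as stacked bars for each of the 6 libraries. The 5 RNA genes filled 37.0 and 31.1% of the mutant libraries and 45.6 and 45.8% of the control melanoma libraries, but 9.89 and 9.95% of the wild-type libraries.

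Because a share of this size lowers the share of everything else, each RNA was also expressed per 1000 counts on all genes outside the 5. On this scale the sum of the 5 was 587 and 451 in mutant melanoma, 838 and 845 in control melanoma and 109.8 and 111 in wild-type melanophores. The sum relative to other genes was therefore 7.64-fold in control melanoma over wild-type melanophores, where the plain share gave 4.61-fold. It was 4.71-fold in mutant melanoma over wild-type melanophores, against 3.43-fold from the share, and 0.617-fold in mutant over control melanoma, against 0.745-fold from the share.

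For the tests, edgeR's quasi-likelihood method was fitted to all genes of each pair of groups, and a call needed both a log2 fold change of at least 1 in size and a p under 0.05 after Benjamini-Hochberg adjustment. Control melanoma over wild-type melanophores gave higher calls for all 5 RNAs and for 19.9% of the 19088 genes tested, with lower calls for 12.1%. Mutant melanoma over wild-type melanophores also gave higher calls for all 5, and for 9.72% of 17950 genes, with lower calls for 9.57%. Between mutant and control melanoma 1 of the 5, RNaseP_nuc, was called lower, where 6.68% of 17651 genes were called lower, and none was called higher, where 5.86% were. All 5 had an adjusted p under 0.05 in that comparison, with estimates below 0. The share of all genes that pass on adjusted p alone is not given here, so this count has no background. On the log2 scale the median difference of the 5 was 3.18 in control melanoma over wild-type melanophores, 2.15 in mutant melanoma over wild-type melanophores and -0.74 in mutant over control melanoma, beside medians of -0.01, -0.03 and -0.02 over all genes tested.

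**Figure D2:**
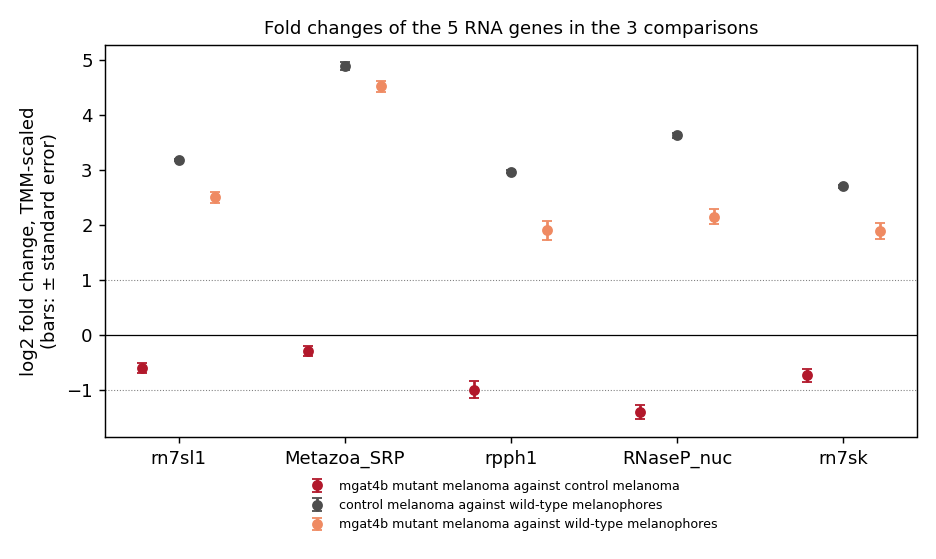
Log2 fold change (vertical axis, TMM-scaled, edgeR) of each RNA gene in the 3 comparisons, with bars for ± 1 standard error and dotted lines at the minimum size for a call. Both melanoma groups lay above wild-type melanophores for all 5 genes, with Metazoa_SRP highest at 4.89 and 4.53, and mutant lay below control melanoma, with RNaseP_nuc lowest at -1.41.

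rn7sl1, the 7SL gene on the plus strand of chromosome 3 at 30248739 to 30249036 (GRCz11, 298 bases), was the most abundant gene of every library. It had 1602664 and 928784 counts in mutant melanoma, 3075703 and 3149437 in control melanoma and 562206 and 544750 in wild-type melanophores. These were 30.7 and 26.2% of all counts in mutant melanoma, 37.4 and 37.3% in control melanoma and 7.65 and 7.65% in wild-type melanophores. The groups did not overlap, and control melanoma was highest. The share of all genes whose groups separate is not given, here or for the genes below. Per 1000 counts on other genes, rn7sl1 was at 487 and 381 in mutant melanoma, 688 and 688 in control melanoma and 84.9 and 85.0 in wild-type melanophores.

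rn7sl1 rose in control melanoma over wild-type melanophores by 3.18 on the log2 scale (SE 0.02, edgeR adjusted p = 3.1e-62), a 9.07-fold difference. It rose in mutant melanoma over wild-type melanophores by 2.50 (SE 0.10, edgeR adjusted p = 1.9e-05), a 5.67-fold difference. Between mutant and control melanoma its log2 fold change was -0.61 (SE 0.09, edgeR adjusted p = 0.00187), under the size needed for a call, and 75.3% of the genes tested had a larger one. Leaving out each library in turn gave estimates from -0.80 to -0.46.

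The second SRP RNA gene, Metazoa_SRP on the plus strand of chromosome 11 at 12187306 to 12187602 (297 bases), had the widest difference between melanoma and wild type of the 5. It had 3200 and 2117 counts in mutant melanoma, 5255 and 5392 in control melanoma and 287 and 291 in wild-type melanophores. Per 1000 counts on other genes this was 0.972 and 0.868 in mutant melanoma, 1.17 and 1.18 in control melanoma and 0.0433 and 0.0454 in wild-type melanophores. By counts it was gene 97 and 98 of the mutant libraries, 72 and 76 of the control libraries, and 4094 and 3951 of the wild-type libraries. A gene among the most abundant in both melanoma groups was thus far down the order in wild type. The 5 genes were chosen as abundant, and this copy is abundant through the melanoma libraries, so the choice may favor a wide difference. The SRP RNA copies ENSDARG00000111350 (691 and 464 counts) and ENSDARG00000114737 (419 and 431) were above it in wild-type melanophores and below it in both melanoma groups. Their log2 fold changes in control melanoma over wild-type melanophores were 2.68 and 4.03.

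Metazoa_SRP rose in control melanoma over wild-type melanophores by 4.89 on the log2 scale (SE 0.07, edgeR adjusted p = 2.5e-47), which is 29.7-fold, and in mutant melanoma over wild-type melanophores by 4.53 (SE 0.10, edgeR adjusted p = 6.6e-06), which is 23.0-fold. Mutant and control melanoma differed least for this gene, with a log2 fold change of -0.30 (SE 0.09, edgeR adjusted p = 0.0421). That adjusted p did not hold under several other settings, among them leaving out control replicate 1 (0.355) or control replicate 2 (0.384) and library totals with no composition scaling (0.527).

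Near-identical copies bear on both SRP RNA genes. The annotation held 81 SRP RNA genes, of which 79 lie on chromosome 11 and 77 of these between positions 11338804 and 12718398, with a median length of 297 bases. How reads that match several genes were counted is not given in the sources used here, so the split of reads between Metazoa_SRP, its copies and rn7sl1 is uncertain. rn7sl1 alone held 99.53 and 99.52% of all SRP RNA counts in mutant melanoma, 99.56 and 99.56% in control melanoma and 99.71 and 99.74% in wild-type melanophores. Of the 79 SRP RNA genes other than rn7sl1 and Metazoa_SRP, 60 had a count in some library and 26 reached 10 counts in one. Relative to rn7sl1 the counts of these 79 genes were 2.70 and 2.54 per 1000 in mutant melanoma, 2.73 and 2.75 in control melanoma and 2.37 and 2.08 in wild-type melanophores, a range of 2.08 to 2.75 per 1000 over all libraries.

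Among these copies, 14 were tested in control melanoma over wild-type melanophores, and 8 of them had under 10 counts in at least 1 wild-type library and passed the filter through control melanoma, where they had to come out higher. The other 6, with at least 10 counts in both wild-type libraries, were all called higher there, with log2 fold changes from 2.31 to 4.26. In mutant melanoma over wild-type melanophores 5 of the 6 tested copies with such counts were called higher, with log2 fold changes from 1.16 to 4.73. Over all genes tested 19.9% were called higher in control melanoma and 9.72% in mutant melanoma over wild-type melanophores. Between mutant and control melanoma 1 of 17 was called lower, and 1 was called higher that had under 10 counts in control melanoma. The most abundant copy, ENSDARG00000114737 on chromosome 11 at 16122786 to 16123082, had 1851 and 1071 counts in mutant melanoma, 4135 and 4475 in control melanoma and 419 and 431 in wild-type melanophores. Between mutant and control melanoma its log2 estimate was -0.87 (edgeR adjusted p = 0.00118), which is not a call. Another copy, ENSDARG00000112374, had an estimate of the opposite sign in that comparison, 0.54 (edgeR adjusted p = 0.0468).

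rpph1, the RNA of nuclear RNase P, lies on the plus strand of chromosome 2 at 37826736 to 37827038 (303 bases). It had 56563 and 27753 counts in mutant melanoma, 134481 and 133657 in control melanoma and 27672 and 27609 in wild-type melanophores. These counts were 1.08 and 0.784% of the mutant libraries, 1.64 and 1.58% of the control libraries and 0.376 and 0.388% of the wild-type libraries. Per 1000 counts on other genes it was at 17.2 and 11.4 in mutant melanoma, 30.1 and 29.2 in control melanoma and 4.18 and 4.31 in wild-type melanophores. The 3 groups stood apart, with the widest gap between replicates in the mutant.

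rpph1 rose in control melanoma over wild-type melanophores by 2.97 on the log2 scale (SE 0.03, edgeR adjusted p = 5.5e-51, 7.82-fold). It also rose in mutant melanoma over wild-type melanophores, by 1.90 (SE 0.17, edgeR adjusted p = 3.6e-04, 3.73-fold). In mutant over control melanoma its log2 fold change of -1.00 (SE 0.15, edgeR adjusted p = 0.00196, 0.501-fold) fell just short of the size for a call before rounding. The estimate was -1.33 without mutant replicate 1 and -0.75 without mutant replicate 2. With both mutant libraries kept it was -1.01 with DESeq2, -1.05 with totals that left out the 5 RNA genes and -0.79 with library totals alone. The estimate thus lies close to the size for a call, and the call depends on the setting and on the mutant library kept.

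RNaseP_nuc, the other RNase P RNA gene, lies on the plus strand of the same chromosome at 42586738 to 42587035 (298 bases). It had 5238 and 2816 counts in mutant melanoma, 17087 and 17325 in control melanoma and 2246 and 2223 in wild-type melanophores. Per 1000 counts on other genes it was at 1.59 and 1.15 in mutant melanoma, 3.82 and 3.78 in control melanoma and 0.339 and 0.347 in wild-type melanophores. Both mutant libraries lay below both control libraries and above both wild-type libraries.

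RNaseP_nuc was the only one of the 5 called between mutant and control melanoma. It fell in mutant melanoma, with a log2 fold change of -1.41 (SE 0.13, edgeR adjusted p = 1.5e-04), or 0.376 times the control level. The call held in every alternative run, with estimates from -1.66 to -1.20. Over wild-type melanophores, RNaseP_nuc rose by 3.63 in control melanoma (SE 0.05, edgeR adjusted p = 4.4e-48, 12.4-fold) and by 2.15 in mutant melanoma (SE 0.14, edgeR adjusted p = 1.2e-04, 4.44-fold). A further gene with this symbol had 5 and 1 counts in mutant melanoma, 25 and 26 in control melanoma and 4 and 4 in wild-type melanophores, far fewer than RNaseP_nuc.

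RNase MRP RNA, which shares most of its proteins with RNase P and takes part in ribosomal RNA processing, was looked at beside the RNase P genes. Its gene rmrp (ENSDARG00000080987) lies on the minus strand of chromosome 1 at 39985905 to 39986160 (256 bases). It had 9495 and 5450 counts in mutant melanoma, 23826 and 21513 in control melanoma and 3632 and 4133 in wild-type melanophores. The order of the groups was that of rpph1. It rose by 3.23 on the log2 scale in control melanoma over wild-type melanophores (SE 0.06, edgeR adjusted p = 2.5e-43) and by 2.25 in mutant melanoma over wild-type melanophores (SE 0.14, edgeR adjusted p = 8.3e-05), and its estimate in mutant over control melanoma was -0.91 (SE 0.11, edgeR adjusted p = 8.6e-04), which is not a call.

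rn7sk, on the minus strand of chromosome 13 at 825904 to 826225 (322 bases), ranked 2 or 3 among all genes by counts in every library. It had 264864 and 139312 counts in mutant melanoma, 517187 and 563430 in control melanoma and 134703 and 133989 in wild-type melanophores. Its share was 5.07 and 3.94% in mutant melanoma, 6.29 and 6.67% in control melanoma and 1.83 and 1.88% in wild-type melanophores. Per 1000 counts on other genes this came to 80.4 and 57.1 in mutant melanoma, 116 and 123 in control melanoma and 20.3 and 20.9 in wild-type melanophores. The groups did not overlap on either scale.

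rn7sk had the smallest rise of the 5 in control melanoma over wild-type melanophores, and in mutant melanoma over wild-type melanophores its rise could not be told from that of rpph1 within their errors. It rose by 2.70 on the log2 scale in control melanoma (SE 0.03, edgeR adjusted p = 3.3e-52, 6.48-fold) and by 1.89 in mutant melanoma (SE 0.14, edgeR adjusted p = 1.6e-04, 3.70-fold). In mutant over control melanoma its log2 fold change was -0.74 (SE 0.12, edgeR adjusted p = 0.00369, 0.599-fold), below the size for a call. Without mutant replicate 1 the estimate was -1.01 and the gene was called, and without mutant replicate 2 it was -0.53. The only other 7SK gene had 0 counts in 5 libraries and 2 counts in wild-type replicate 2.

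**Figure D3:**
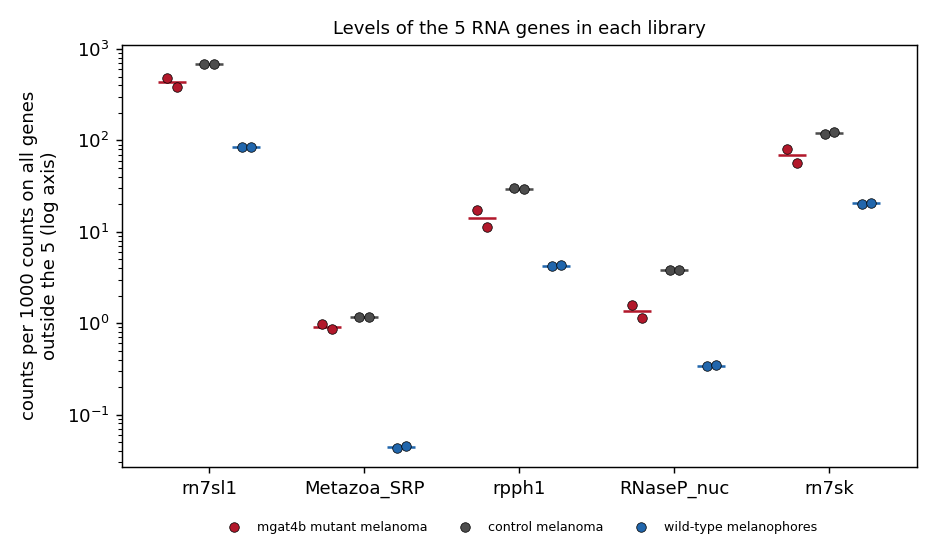
Counts per 1000 counts on all genes outside the 5 (vertical log axis) for each RNA gene, with a point for each library and a line at the mean of each pair. For all 5 genes both control melanoma libraries were highest and both wild-type libraries lowest, and the mutant pairs were spread more widely, as for rn7sl1 at 487 and 381. The share of all genes with this order of groups is not given.

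Expressed per length, as counts per kilobase of the gene scaled to the library total (RPKM units), the order of the 5 genes was rn7sl1, rn7sk, rpph1, RNaseP_nuc and Metazoa_SRP in all 3 groups. The group means for rn7sl1 were 954963 in mutant melanoma, 1253157 in control melanoma and 256663 in wild-type melanophores. Those for rn7sk were 139835 in mutant melanoma, 201237 in control melanoma and 57668 in wild-type melanophores. Those for Metazoa_SRP were 2038 in mutant melanoma, 2150 in control melanoma and 135 in wild-type melanophores. No other annotated gene overlaps the span of any of the 5, and the nearest were EMC10 at 438 bases from rn7sl1, krt95 at 518 from Metazoa_SRP, mettl17 at 529 from rpph1, marchf11 at 5537 from RNaseP_nuc and POLH at 1340 from rn7sk.

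The ratio of one of these RNAs to another within a library needs no scaling to the rest of the genes. RNaseP_nuc per 1000 counts of rpph1 was 92.6 and 101 in mutant melanoma, 127 and 129.6 in control melanoma and 81.2 and 80.5 in wild-type melanophores. The log2 difference was -0.40 between mutant and control melanoma, 0.67 between control melanoma and wild-type melanophores and 0.26 between mutant melanoma and wild-type melanophores. Each exceeded the gap between replicates, which was at most 0.13, but the exact two-sided permutation test gave p = 0.333 for each, the smallest possible.

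Metazoa_SRP per 1000 counts of rn7sl1 was 2.00 and 2.28 in mutant melanoma, 1.71 and 1.71 in control melanoma and 0.510 and 0.534 in wild-type melanophores. The log2 difference was 1.71 between control melanoma and wild-type melanophores and 2.03 between mutant melanoma and wild-type melanophores. It was 0.32 between mutant and control melanoma, with a gap of up to 0.19 between replicates. This was the only one of the 4 ratios that was higher in mutant than in control melanoma.

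rn7sk per 1000 counts of rn7sl1 was 165 and 150.0 in mutant melanoma, 168 and 179 in control melanoma and 239.6 and 246 in wild-type melanophores. Its difference between mutant and control melanoma, -0.14 on the log2 scale, was no larger than the gap of 0.14 between replicates. rpph1 per 1000 counts of rn7sl1 was 35.3 and 29.9 in mutant melanoma, 43.7 and 42.4 in control melanoma and 49.2 and 50.7 in wild-type melanophores. Relative to rn7sl1, then, both rn7sk and rpph1 were lower in either melanoma group than in wild type, by -0.49 and -0.21 in control melanoma and by -0.62 and -0.62 in mutant melanoma on the log2 scale. For all 4 ratios and all 3 pairs of groups the libraries did not overlap, and the exact two-sided permutation test gave p = 0.333, the smallest possible. How often ratios of other gene pairs separate in this way is not given, so this count has no background.

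**Figure D4:**
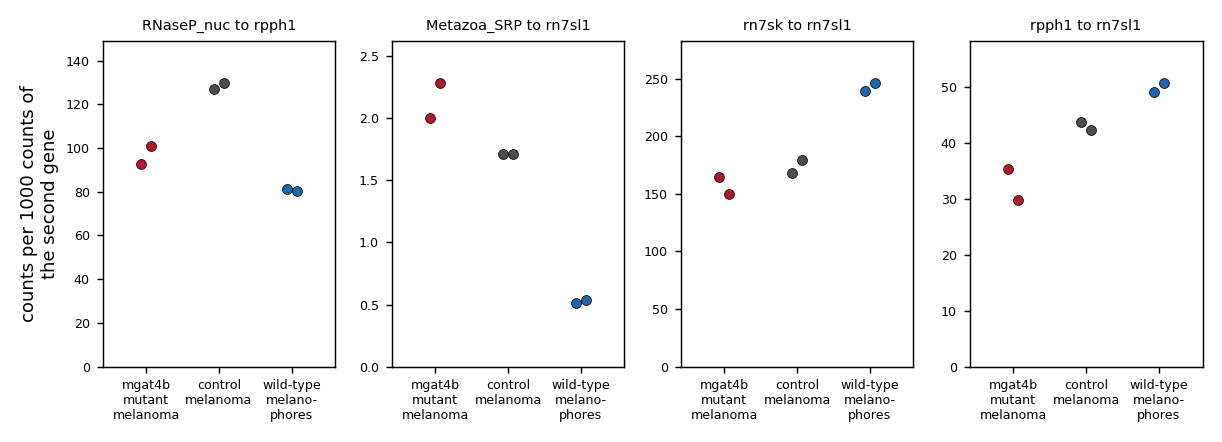
Counts of one RNA gene per 1000 counts of a second one (vertical axes, from 0) for the 4 ratios, with a point for each library. RNaseP_nuc to rpph1 was highest in control melanoma at 127 and 129.6, Metazoa_SRP to rn7sl1 was highest in the mutant at 2.00 and 2.28, and the other 2 ratios were highest in wild-type melanophores.

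Other short structured RNAs were counted beside the 5 genes. Small nucleolar RNAs, guides of RNA modification, took 1.15 and 1.06% of counts in mutant melanoma, 1.54 and 1.59% in control melanoma and 0.227 and 0.244% in wild-type melanophores. Of those with at least 10 counts in both wild-type libraries, 21 of 24 were called higher in control melanoma over wild-type melanophores and 16 of 24 in mutant melanoma over wild-type melanophores. Over all genes tested 19.9% and 9.72% were called higher in these comparisons. U1, U2, U4 and U5 spliceosomal RNAs took 0.233 and 0.189% of counts in mutant melanoma and 0.276 and 0.272% in control melanoma. Their share in wild-type melanophores was 0.0526 and 0.0688%. Those that passed the filter had median log2 fold changes of 3.13, 2.37 and -1.01 in control melanoma over wild-type melanophores, mutant melanoma over wild-type melanophores and mutant over control melanoma. How many of them passed only through the group where they are high is not given here, so these medians may be shifted. U6, another RNA polymerase III transcript, took 0.0157 and 0.0127% of counts in mutant melanoma, 0.0140 and 0.0133% in control melanoma and 0.00218 and 0.00199% in wild-type melanophores. 5S ribosomal RNA, also made by RNA polymerase III, had a median of -0.13 in control melanoma over wild-type melanophores and 0.04 in mutant melanoma over wild-type melanophores. The libraries were depleted of ribosomal RNA, and the part of that depletion in the 5S counts was not tested. In mutant over control melanoma its median was 0.86, with 2 of 13 called higher and 0 lower, whereas all 5 RNA genes had estimates below 0. Over all genes tested 5.86% were called higher there.

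The shortest genes differed from longer ones as well. Among genes of up to 500 bases with symbols of other than protein-coding genes, the median log2 fold change was 1.63 over 212 genes in control melanoma over wild-type melanophores and 1.71 over 193 genes in mutant melanoma over wild-type melanophores. Protein-coding genes of up to 500 bases had medians of 0.89 and 1.50 in those comparisons. Those of 500 to 1000 bases had medians of 0.05 and 0.34, and those over 4000 bases had medians of 0.01 and -0.02. In mutant over control melanoma the medians of protein-coding genes were 0.42 up to 500 bases and -0.08 over 4000 bases, against -0.26 for the other short genes. How many genes of each length passed the filter only through the group where they are high is not given here. All 5 RNA genes are under 500 bases long, and the part of transcript length or RNA recovery in their differences was not tested.

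The proteins of the same particles were followed with 81 genes in 5 lists. In control melanoma over wild-type melanophores 5 of the 74 tested were called higher and 6 lower, in mutant melanoma over wild-type melanophores 9 of 75 were called higher and 2 lower, and in mutant over control melanoma 3 of 69 were called higher and none lower. With library totals and no composition scaling the calls became 1 higher and 42 lower in control melanoma over wild-type melanophores, 3 higher and 11 lower in mutant melanoma over wild-type melanophores, and 6 higher and 0 lower in mutant over control melanoma. Over all genes that setting called 1943 higher and 8565 lower of 19088 in control melanoma over wild-type melanophores. It called 883 higher and 4409 lower of 17950 in mutant melanoma over wild-type melanophores. In mutant over control melanoma it called 1589 higher and 893 lower of 17651. Over all genes tested with TMM, 31.9%, 19.3% and 12.5% were called in either direction in these comparisons. Higher calls were 19.9%, 9.72% and 5.86% and lower calls 12.1%, 9.57% and 6.68%, in the same order. These shares stand beside the counts of each list below. The share of all genes with an unadjusted p under 0.05 is not given. In the comparisons with wild-type melanophores the medians of the lists ran from -0.91 to 0.93 on the log2 scale. The lowest was that of RNase P and RNase MRP proteins in control melanoma, where 6 of 10 genes passed the filter through wild-type melanophores. The count of 3 in mutant over control melanoma became 1 without control replicate 1 or without control replicate 2, 12 without mutant replicate 1 and 13 without mutant replicate 2, and the count of 11 in mutant melanoma over wild-type melanophores became 23 without mutant replicate 1 and 17 without mutant replicate 2.

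Of the 8 genes of SRP proteins and the SRP receptor, 2 were called higher and 1 lower in control melanoma over wild-type melanophores, and the list's median was -0.19 on the log2 scale. Over all 19088 genes tested 19.9% were called higher and 12.1% lower. With library totals and no composition scaling the counts of the list became 0 and 6, where 1943 and 8565 of all genes were called. SRP9, which binds the Alu domain of SRP RNA, had 203 and 57 counts in mutant melanoma, 126 and 103 in control melanoma and 52 and 56 in wild-type melanophores, and rose by 1.77 in control melanoma over wild-type melanophores (SE 0.23, edgeR adjusted p = 4.2e-09). SRP14, its partner on the Alu domain, had 37 and 28 counts in mutant melanoma, 16 and 14 in control melanoma and 53 and 61 in wild-type melanophores, and fell in the same comparison (log2 fold change -1.23, SE 0.38, edgeR adjusted p = 0.00479). The members of one heterodimer thus changed in opposite directions in this comparison only. In mutant melanoma over wild-type melanophores SRP14 had an estimate of 0.53 (SE 0.38, edgeR adjusted p = 0.344), of the same sign as SRP9. In mutant over control melanoma the estimates were 0.82 for SRP9 (edgeR adjusted p = 0.180) and 1.82 for SRP14 (edgeR adjusted p = 0.0505). In mutant melanoma over wild-type melanophores SRP9 rose by 2.52 (SE 0.45, edgeR adjusted p = 0.00770) and srprb, the membrane subunit of the SRP receptor, by 1.61 (SE 0.35, edgeR adjusted p = 0.0159), with a list median of 0.05. In mutant over control melanoma edgeR called none of the 8, the unadjusted p was under 0.05 for 2 with higher and 0 with lower levels, and the median was 0.30. SRPRA, the receptor subunit that was the most abundant of the list there, was at 51.0 and 37.6 CPM in mutant melanoma and 51.9 and 49.6 CPM in control melanoma.

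The 15 genes of the Sec61 translocon, the channel to which SRP delivers ribosomes, and of the enzymes and chaperones beside it had a median log2 fold change of 0.93 in mutant melanoma over wild-type melanophores. Of these 6 were called higher and 0 lower, or 1 higher with library totals and no composition scaling. Over all 17950 genes tested 9.72% were called higher and 9.57% lower. With library totals 883 of all genes were called higher and 4409 lower. SEC11A, a catalytic subunit of signal peptidase, rose there by 2.29 (SE 0.20, edgeR adjusted p = 3.8e-04) and SSR3, a subunit of the translocon-associated protein complex, by 1.44 (SE 0.11, edgeR adjusted p = 2.1e-04). SEC11A was also the only gene of the list called in mutant over control melanoma. It had 297 and 178 counts in mutant melanoma, against 141 and 126 in control melanoma, and rose by 1.53 (SE 0.19, edgeR adjusted p = 8.1e-04). In control melanoma over wild-type melanophores edgeR called none of the 15. At an adjusted p under 0.05 alone 11 had higher and 0 lower levels, and at an unadjusted one 12 and 0. The share of all genes that pass at these looser thresholds is not given. The median of 0.63 became -0.27 with library totals and no composition scaling.

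Of the 12 genes of RNase P and RNase MRP proteins, 10 could be tested in control melanoma over wild-type melanophores, where 3 were called lower and none higher, with a median log2 fold change of -0.91. Counts were low, and 6 of the 10, all 3 called genes among them, had under 10 counts in at least 1 control library and passed the filter through wild-type melanophores. The 4 with at least 10 counts in both control libraries had log2 fold changes from -0.89 to 0.80, and edgeR called none. Over all genes tested 12.1% were called lower. RPP38 had 11 and 0 counts in mutant melanoma, 1 and 2 in control melanoma and 32 and 21 in wild-type melanophores, and RPP25L had 3 and 0 in mutant melanoma, 2 and 1 in control melanoma and 24 and 11 in wild-type melanophores. In mutant over control melanoma edgeR called none of 6 (unadjusted p under 0.05 for 1, which was higher), and in mutant melanoma over wild-type melanophores none of 9 (unadjusted p under 0.05 for 1, which was higher). RPP14, the most abundant of the list, was at 14.2 and 12.2 CPM in mutant melanoma, 8.98 and 9.71 CPM in control melanoma and 9.77 and 8.10 CPM in wild-type melanophores.

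The 9 genes of the 7SK particle and P-TEFb had median log2 fold changes of -0.49 in control melanoma over wild-type melanophores and -0.70 in mutant melanoma over wild-type melanophores, the opposite sign to rn7sk. In control melanoma 7 had lower levels with an adjusted p under 0.05 (edgeR), of which 1 also reached the size for a call, and in mutant melanoma 3 had, of which 2 did. Over all genes tested 12.1% and 9.57% were called lower in these comparisons, and the share that passes on adjusted p alone is not given. With library totals and no composition scaling the medians were -1.39 and -1.32, with 8 and 7 called lower. Over all genes the medians were then -0.90 and -0.63, with 8565 of 19088 and 4409 of 17950 called lower. HEXIM2, which inhibits P-TEFb when bound to 7SK, had 83 and 79 counts in mutant melanoma, 122 and 140 in control melanoma and 443 and 489 in wild-type melanophores. It fell in both comparisons, with log2 fold changes of -1.14 in control melanoma (SE 0.13, edgeR adjusted p = 2.9e-10) and -1.17 in mutant melanoma over wild-type melanophores (SE 0.20, edgeR adjusted p = 0.00651). One of the genes named MEPCE (ENSDARG00000059461), which caps 7SK RNA, fell in mutant melanoma over wild-type melanophores (log2 fold change -1.08, SE 0.14, edgeR adjusted p = 0.00236), whereas the other (ENSDARG00000035771) had an estimate of 0.34 that did not pass. Between mutant and control melanoma edgeR called none of the 9, although the unadjusted p was under 0.05 for 1 that was lower, and the median was -0.03.

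For RNA polymerase III and its factors, 37 genes were listed. In control melanoma over wild-type melanophores 3 of 32 tested were called higher and 1 lower, with a median log2 fold change of -0.28. Over all 19088 genes tested 19.9% were called higher and 12.1% lower. With library totals and no composition scaling 1 of the list was called higher and 21 lower, with a median of -1.17. Over all genes 1943 were then called higher and 8565 lower, with a median of -0.90. The subunit POLR3K had 32 and 49 counts in mutant melanoma, 35 and 20 in control melanoma and 14 and 17 in wild-type melanophores, and was the only one of 34 called in mutant melanoma over wild-type melanophores, at 2.78 (SE 0.56, edgeR adjusted p = 0.0123). bdp1, a subunit of the initiation factor TFIIIB, rose by 1.89 in control melanoma over wild-type melanophores (SE 0.43, edgeR adjusted p = 1.8e-04). Mutant over control melanoma gave 2 higher calls among 31 genes, where 5.86% of all genes tested were called higher, and none lower, with a median of 0.55. Among them was brf2, another TFIIIB subunit, with 22 and 10 counts in mutant melanoma and 3 and 3 in control melanoma, which passed the filter only through the mutant libraries.

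**Figure D5:**
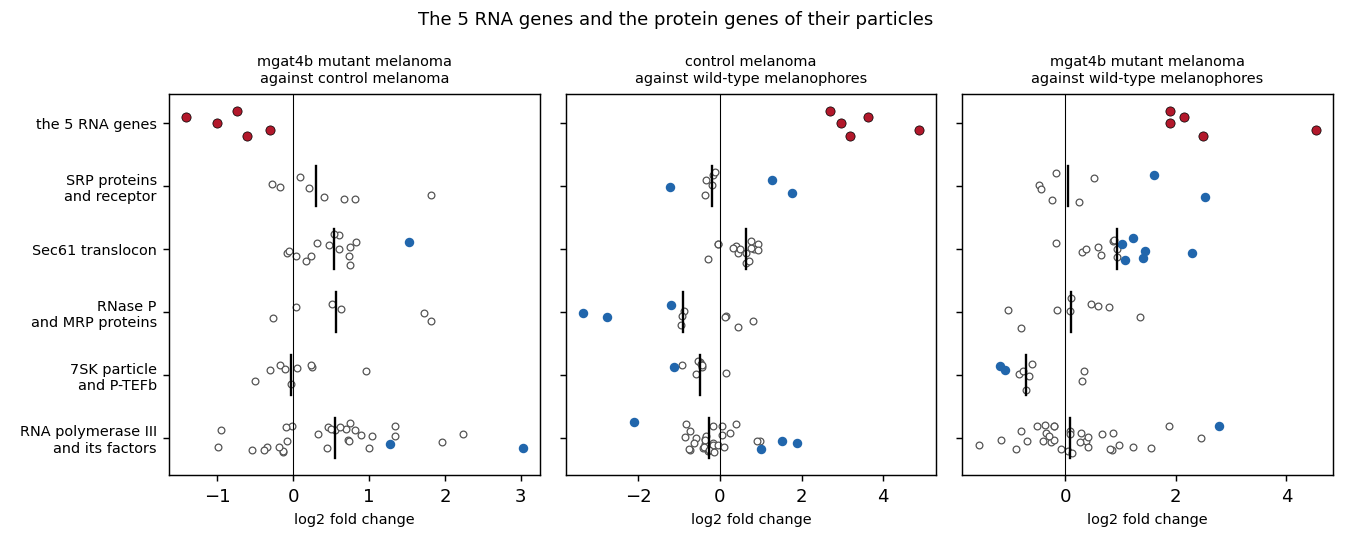
Log2 fold change (horizontal axes, edgeR, each panel with its own range) of the 5 RNA genes, in the top band, and of the tested protein genes of their particles, in 5 bands below, for the 3 comparisons. Filled blue points are called protein genes, open points are not called and vertical lines are list medians. In control melanoma over wild-type melanophores the RNA genes lay between 2.70 and 4.89 and the protein list medians between -0.91 and 0.63. The lowest median is that of RNase P and RNase MRP proteins, where 6 of 10 genes passed the filter through wild-type melanophores.

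The scaling of the libraries moved the size of these differences, but under no scaling run did an RNA gene's fold change turn its sign. With library totals and no composition scaling, the median of all genes shifted to -0.90 in control melanoma over wild-type melanophores, to -0.63 in mutant melanoma over wild-type melanophores and to 0.19 in mutant over control melanoma, and with totals that left out the 5 RNA genes to -0.15, -0.17 and -0.09. Under library totals alone rn7sl1 had log2 fold changes of 2.29, 1.90 and -0.39 in these 3 comparisons, and rpph1 2.07, 1.29 and -0.79. RNaseP_nuc had 2.74, 1.54 and -1.20, and rn7sk 1.80, 1.28 and -0.53. For Metazoa_SRP the values that involve the mutant were 3.92 over wild-type melanophores and -0.08 over control melanoma. The calls over all genes moved far more. In control melanoma over wild-type melanophores 62.2% of 6091 called genes were higher with TMM, against 18.5% of 10508 with library totals alone and 54.4% of 6477 with totals that left out the 5 RNA genes. In mutant melanoma over wild-type melanophores these shares were 50.4% of 3461, 16.7% of 5292 and 41.2% of 3617, and in mutant over control melanoma 46.7% of 2214, 64.0% of 2482 and 40.8% of 2159.

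The genes whose levels were most like those of each RNA were found among the 2222 genes that averaged 50 CPM or more, by Pearson's r of log2(CPM + 1) over the 6 libraries, which share depth and group structure. For rn7sl1 they were si:ch211-113a14.10 (r = 0.9998), MYL1, a myosin light chain of fast muscle (0.9997), and the SRP RNA copy ENSDARG00000114737 (0.9994). For Metazoa_SRP they were pvalb4, a muscle parvalbumin (0.9997), ENSDARG00000105409 (0.9996) and si:dkey-261m9.17 (0.9996). For rpph1 they were CSPG4 (0.9961), a U4 RNA gene (0.9949) and ENSDARG00000104420 (0.9948). For RNaseP_nuc they were a pair of collagen genes named COL12A1 (0.9988 and 0.9984) and ENSDARG00000084828 (0.9984). For rn7sk they were si:ch73-368j24.3 (0.9983), si:ch211-113a14.26 (0.9978) and SNORA73, a small nucleolar RNA (0.9972). The genes named are described by their r and length alone. MYL1 (1432 bases), pvalb4 (1976), CSPG4 (7091) and the COL12A1 pair (11059 and 10798) are longer, and the others are at most 397 bases long. The muscle marker list moved along as well, as did the fibroblast and scale list and the erythrocyte list. The muscle sums were 418 to 458 CPM in mutant melanoma, 732 to 749 CPM in control melanoma and 33.6 to 33.8 CPM in wild-type melanophores.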

How the data were processed

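Total RNA libraries, depleted of ribosomal RNA, were sequenced from 6 samples, 2 in each of 3 groups taken from the sample labels. Per the labels, reads were trimmed by Trimmomatic, mapped by STAR to GRCz11 and assigned to genes by featureCounts, and the authors deposited raw counts. The annotation release, strand setting and treatment of reads matching several genes are not given in the sources used here. Depth was 3538922 to 8446997 counts per library.

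Each pair of groups was fitted over its 4 libraries with edgeR 4.0.16 (R 4.3.3, limma 3.58.1) after filterByExpr (minimum count 10, minimum total 15) and TMM, with Benjamini-Hochberg adjustment over all genes tested. The standard error (SE) printed is the size of the log2 fold change divided by the square root of the F statistic of edgeR's test. Shares, ratios and levels per 1000 counts on other genes were computed per library. Symbols matched 29201 of 32520 identifiers. The procedure was tested on simulated data. Alternatives were DESeq2 1.42.0, other scalings and filters, all libraries in one fit, a replicate block and leaving out each library.

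The 5 genes and the lists were chosen with earlier results of these data known. Named beside them are, per protein list and comparison, up to 2 called genes of lowest p or else the most abundant gene, the other RNAs of the same classes and RNase MRP RNA, and the 3 genes of highest correlation with each RNA. The MEPCE gene that was not called, RPP38, RPP25L and the SRP9 and SRP14 pair are described further by choice made after their values were seen. Cell type marker lists were chosen to check the labels, and the order of groups in their sums was also set beside that of the RNA genes. Results for some genes that meet the naming rule are not reported here.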

Additional observations from a re-analysis of the deposited data

Results flagged for a closer look

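The rises over wild-type melanophores differed in size between mutant and control melanoma, as tested directly by edgeR between these melanoma groups over 4 libraries, though for Metazoa_SRP the adjusted p held in 8 of 13 alternatives only (1.7e-07 to 0.527). The log2 fold change of mutant over control melanoma was -0.61 for rn7sl1 (edgeR adjusted p = 0.00187), -0.30 for Metazoa_SRP (edgeR adjusted p = 0.0421), -1.00 for rpph1 (edgeR adjusted p = 0.00196), -1.41 for RNaseP_nuc (edgeR adjusted p = 1.5e-04) and -0.74 for rn7sk (edgeR adjusted p = 0.00369). Only RNaseP_nuc also reached the size for a call. Both mutant libraries lay below both control libraries for each of the 5 genes per 1000 counts on other genes. The share of all genes that separate in this way is not given. With 2 against 2 libraries such a separation gives p = 0.333 in the exact two-sided permutation test. Mutant replicate 2, the shallowest library, had the lowest of the melanoma values for all 5 on that scale. Without it the log2 fold changes were -0.46 for rn7sl1, -0.24 for Metazoa_SRP, -0.75 for rpph1, -1.22 for RNaseP_nuc and -0.53 for rn7sk.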

How the results depend on the processing

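Of 195 alternative fold changes of the 5 RNA genes, none reversed, 184 stayed on their side of the threshold and 11 moved past it, 10 for rpph1 and 1 for rn7sk, all in mutant over control melanoma. In that comparison 2 RNA genes in place of 1 were called with DESeq2, DESeq2 size factors, totals without the 5 RNA genes, no filter, at least 10 counts in every library or all 6 libraries in one fit, where rpph1 was at -1.01, -1.01, -1.05, -1.02, -1.07 and -1.01. Leaving out a library gave 1 to 3 calls and -1.33 to -0.75 for rpph1 and -1.01 to -0.53 for rn7sk, with the lone library assumed to vary like the others. Metazoa_SRP kept an adjusted p under 0.05 there in 8 of 13 alternatives, over a range of 1.7e-07 to 0.527 (0.0850 without a filter).

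Replicate numbers are shared by the groups, but deviations of same-numbered libraries from their group means correlated by only 0.011, -0.014 and 0.008 over 19496 genes. No pairing by number was seen, though sampling noise in genes of low count could hide one. With the replicate block 2 RNA genes were called in mutant over control melanoma, with rpph1 at -1.02, and Metazoa_SRP had an adjusted p of 0.0649.

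Protein genes called in mutant over control melanoma were 3, against 6 with library totals, 1 without a filter, 6 with all libraries in one fit and 1 to 13 without 1 library. In control melanoma over wild-type melanophores they were 11, against 43 with library totals, where the calls over all genes went from 6091 to 10508. In mutant melanoma over wild-type melanophores they were 11, and 9 to 23 without 1 library. Without rn7sl1 the summed share was 7.85% in mutant melanoma, 13.3% in control melanoma and 2.46% in wild-type melanophores, and without mitochondrial genes 46.2% in control melanoma and 10.3% in wild-type melanophores. With totals that left out the 5 RNA genes, 1 of the 3 most similar genes was shared for rpph1 and 1 for rn7sk. The cause of these shifts was not tested.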
